A study of Mus musculus with 2 samples.

Results

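The genes described here carry out antigen presentation by MHC class II. They were chosen by name, as every probe set whose platform symbol was Cd74, H2-Aa, H2-Ab1, H2-Eb1, H2-DMa, H2-DMb1, H2-Oa, Ciita, Ctss or Ifi30. Of these 10 genes, 9 had a probe set of their own, with 17 probe sets among 34945 that carry 1 gene symbol, and 18193 genes were measured in all. H2-DMb1 was reached only by 2 probe sets that it shares with H2-DMb2, and Ifi30 had 1 further probe set that it shares with Pik3r2. These 3 shared probe sets are given separately.

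The cells were mouse regulatory T cells (Tregs) induced in the animal through dendritic cells, taken after immunization and sorted by flow cytometry as positive for CD25 and Foxp3. Total RNA of Hopx-sufficient cells was hybridised to 1 array and that of Hopx-/- cells, here called Hopx-deficient, to 1 other. Hopx is a small homeodomain-only cofactor of transcription. The strain and age of the mice, the antigen, the number of animals behind each array and the purity of the sort are not given in the sources used here.

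Class II molecules are dimers of an alpha and a beta chain that show peptides from endosomes to CD4 T cells. The chains assemble with the invariant chain, encoded by Cd74, which cathepsin S (Ctss) trims to a short stub in the groove; H2-DM removes that stub and loads peptide, H2-DO restrains H2-DM, and the thiol reductase GILT (Ifi30) opens disulfide bonds of the antigen. Ciita encodes the coactivator that switches on the class II genes through factors bound to the X and Y boxes of their promoters. B cells, dendritic cells and macrophages are the main cells that make class II, and mouse T cells are not counted among them.

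Letters of the X and Y boxes can be read in the promoters of several of these genes. They are shown because, of the genes that carry them, H2-Aa and H2-Eb1 were lower and H2-Oa and H2-Ob higher on these arrays. H2-DMb1 has no value of its own. The sequences are from RefSeq (GRCm38.p6), 5′ to 3′ on the strand of the gene, and lie before the annotated start. Capitals mark the letters GNAAC, part of the X box, and TGATTGG, part of the Y box. In H2-Aa, H2-Oa and H2-Ob the marked GNAAC lies in no match to the longer X box spellings given below.
H2-Aa: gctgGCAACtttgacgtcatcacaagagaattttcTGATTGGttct
H2-Eb1: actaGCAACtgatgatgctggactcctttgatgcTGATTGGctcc
H2-DMb1: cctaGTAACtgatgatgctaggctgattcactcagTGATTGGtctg
H2-Oa: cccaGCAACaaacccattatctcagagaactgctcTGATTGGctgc
H2-Ob: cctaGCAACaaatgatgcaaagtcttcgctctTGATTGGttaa
The stretch of H2-Aa is at chr17:34287863-34287908 on the minus strand. The others are on the plus strand, that of H2-Eb1 at chr17:34305772-34305816, that of H2-DMb1 at chr17:34153093-34153138, that of H2-Oa at chr17:34092299-34092344 and that of H2-Ob, the partner chain of H2-Oa, at chr17:34238814-34238856.

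The deposited values are log values from which the mean of both arrays had been subtracted, probe set by probe set. The columns therefore mirror each other and hold no signal level, and whether a probe set was detected cannot be given. Base 2 is assumed, and differences are Hopx-deficient minus Hopx-sufficient on that log2 scale. Since a genotype is represented by 1 array, differences carry no replicate error and were not tested, and a spread can be given only over probe sets of a gene, which share the same RNA. As the check of the labels, Hopx stood 35.4-fold lower in Hopx-deficient cells (mean of 2 probe sets). The genes of the sort differed by 0.28 (Foxp3, 1 probe set) and -0.05 (Il2ra, 2 probe sets at -0.19 and 0.09). The 18 probe sets of hybridization spike-ins, transcripts of no mouse gene added in fixed amounts, ranged from -0.21 to 0.01, with a median of -0.12.

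Both I-A chains, H2-Aa and H2-Ab1, and the I-E beta chain H2-Eb1 were lower on the Hopx-deficient array, and the genes that act on class II went either way. The mean difference was -0.37 for H2-Ab1, -0.33 for H2-Aa and -0.23 for H2-Eb1, while H2-Oa was higher by 0.40. Of the class II chain genes that are not members, H2-Eb2 stood at 0.10 (1 probe set). H2-Ea, the alpha chain of I-E, had 3 probe sets from -0.14 to 0.26, with a mean of 0.04. H2-Ea was looked up after the other values had been seen. Over the 9 genes, 6 were lower and 3 higher, with a median of -0.10, against 47.4% lower and a median of 0.01 over all genes. None was 1.5-fold apart in either direction, a size reached by 1.57% of all genes (0.313% upward). Past 0.32 on the log2 scale, a lower threshold, 2 of the 9 were lower (H2-Ab1 and H2-Aa) and 1 was higher (H2-Oa), against 6.61% and 4.36% of all genes. In bulk RNA, fewer cells of a type and less RNA per cell cannot be told apart.

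**Figure D1:**
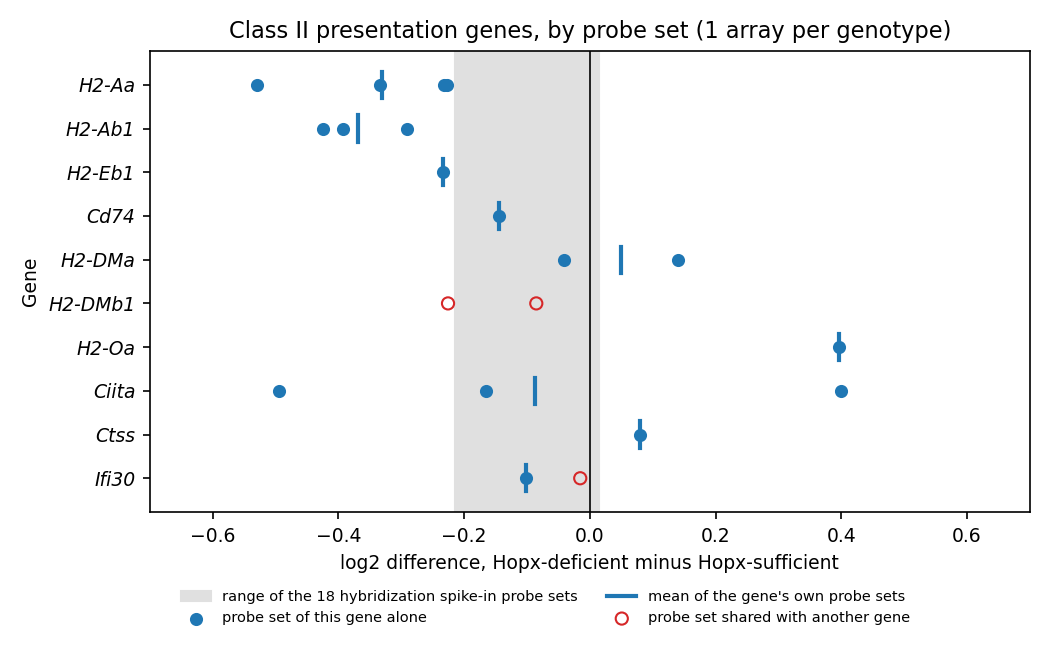
Log2 difference (x axis) of every probe set of the 10 class II presentation genes (y axis), Hopx-deficient minus Hopx-sufficient, with 1 array per genotype. Filled points are probe sets of a single gene, open points are shared with another gene, short lines are means over a gene's own probe sets and the grey band is the range of the 18 spike-in probe sets; all points of H2-Aa, H2-Ab1 and H2-Eb1 lie to the left of the band.

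H2-Aa encodes the alpha chain of I-A, and its 4 probe sets were all lower in the absence of Hopx. In the sufficient and the deficient column, in that order, they read 0.11 and -0.11, 0.12 and -0.12, 0.17 and -0.17, and 0.26 and -0.26. The differences were thus -0.23, -0.23, -0.33 and -0.53, or 1.17-fold to 1.44-fold, with a mean of -0.33 ± 0.14 (SD over 4 probe sets). Of the genes with 4 probe sets, 14.6% had all of them below 0. By their suffix all 4 probe sets of H2-Aa can bind transcripts of more than 1 gene, so the array holds no value for H2-Aa without this limit.

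H2-Ab1 encodes the beta chain of I-A, the partner of the H2-Aa product, and it lay lowest among the members. Its probe sets read 0.20, 0.15 and 0.21 in the Hopx-sufficient column and -0.20, -0.15 and -0.21 in the Hopx-deficient column. The differences were -0.39, -0.29 and -0.42, with a mean of -0.37 ± 0.07 (SD over 3 probe sets), or 1.29-fold lower. By their suffix the probe sets at -0.39 and -0.29 can bind transcripts of more than 1 gene, as for H2-Aa, and the one at -0.42 is not among these. Among genes with 3 probe sets, 18.9% had all of them below 0. Of all genes 4.88% were lower than H2-Ab1 and 6.23% lower than H2-Aa, so neither chain was at the extreme of the array.

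H2-Eb1 encodes the beta chain of I-E, the second class II molecule of the mouse. Its single probe set read 0.12 in Hopx-sufficient and -0.12 in Hopx-deficient cells, a difference of -0.23 (1.18-fold lower). All 8 probe sets of H2-Aa, H2-Ab1 and H2-Eb1 were below the lowest of the spike-ins, the nearest of them at -0.23 against -0.21, and 15.6% of all probe sets with 1 symbol did so.

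Cd74 encodes the invariant chain, which is made in the same cells as the class II chains and under the same coactivator. It read 0.07 in Hopx-sufficient and -0.07 in Hopx-deficient cells, a difference of -0.14 (1 probe set, 1.11-fold lower). This lay inside the range of the spike-ins, and 20.7% of all genes were lower.

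**Figure D2:**
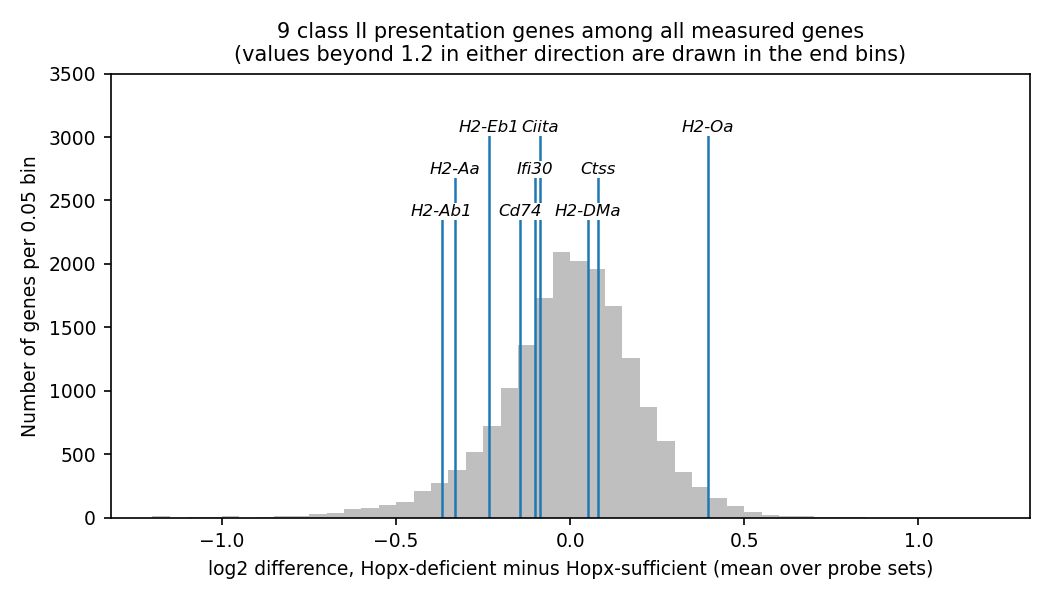
Histogram of the log2 difference, Hopx-deficient minus Hopx-sufficient, over all 18193 genes (x axis, mean over the probe sets of a gene; y axis, number of genes per 0.05 bin), with a blue line for each of the 9 class II presentation genes. H2-Ab1 and H2-Aa sit in the lower flank at -0.37 and -0.33 and H2-Oa in the upper flank at 0.40, with the other 6 between -0.23 and 0.08.

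The genes of the peptide editors H2-DM and H2-DO had differences of both signs. H2-DMa, the alpha chain of H2-DM, read -0.07 and 0.02 in Hopx-sufficient and 0.07 and -0.02 in Hopx-deficient cells. Its 2 probe sets thus gave 0.14 and -0.04, on either side of 0, with a mean of 0.05. The 2 probe sets that H2-DMb1 shares with H2-DMb2, its near copy, gave -0.23 and -0.09, and the 3 probe sets of H2-DMb2 alone lay between -0.17 and -0.09. A value for H2-DMb1 on its own cannot be separated from them.

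H2-Oa, the alpha chain of H2-DO, was the member that stood highest. It read -0.20 in Hopx-sufficient and 0.20 in Hopx-deficient cells, a difference of 0.40 (1 probe set, 1.32-fold higher), and 97.8% of all genes were lower. Its partner H2-Ob, a gene of the wider pathway list, was 1.52-fold higher, at 0.61, by 1 probe set. A second probe set, shared with Gm20506, gave 0.44. Both chains of H2-DO were therefore higher where the I-A chains were lower. Their values rest on 1 probe set of their own each, and the H2-Ob signal was among those with an upper bound by the spacing of the deposited numbers (below 8 before centring, on at least 1 array).

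Ciita, the coactivator, gave no single direction. Its 3 probe sets read -0.20, 0.25 and 0.08 in Hopx-sufficient and 0.20, -0.25 and -0.08 in Hopx-deficient cells, which is a difference of 0.40, -0.50 and -0.16. The mean of -0.09 ± 0.45 (SD over 3 probe sets) describes none of them. The first and the second are listed with the same source sequence in the platform annotation, yet they differ by 0.89. Of the genes with 3 probe sets, 0.93% spread as widely, and the median spread was 0.27.

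Ctss and Ifi30, the enzymes of the endosome, were near 0. Ctss read -0.04 in Hopx-sufficient and 0.04 in Hopx-deficient cells, a difference of 0.08 (1 probe set). Ifi30, an interferon-inducible gene, read 0.05 and -0.05, a difference of -0.10 by its own probe set, and the one shared with Pik3r2 gave -0.02. For scale, the pooled standard deviation between probe sets of a gene was 0.18 over 9010 genes, larger than either difference.

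The spacing of the deposited single-precision numbers, which narrows as the uncentred value falls, gives a coarse bound on signal if the centring was done in that precision. For 6 of the 20 probe sets it places the uncentred value below 8 on at least 1 array, and for the other 14 it gives no bound. The 6 are the Ciita probe sets at 0.40 and -0.50, the H2-DMa probe set at -0.04, both H2-DMb1 probe sets and the shared one of Ifi30. The 2 Ciita probe sets that point in opposite directions are thus both among those with this bound. None of the 8 probe sets of H2-Aa, H2-Ab1 and H2-Eb1 is. Outside the members, both probe sets of H2-Ob, at 0.61 and 0.44, have this bound too.

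Most of these genes lie side by side on chromosome 17, and the differences changed sign along that row. From H2-Oa to H2-Eb2 the gene table lists 14 protein-coding genes, of which 13 had a probe set of their own, 6 higher and 7 lower, with a median of -0.06. H2-Oa (0.40) comes first, followed by Brd2 (0.08), H2-DMa (0.05), H2-DMb2 (-0.13) and H2-DMb1. The antigen-processing genes Psmb9 (-0.06), Tap1 (0.01), Psmb8 (-0.21) and Tap2 (-0.09), which serve MHC class I, fill the middle. H2-Ob (0.61), the highest of the row, is the immediate neighbour of H2-Ab1 (-0.37), the lowest, after which come H2-Aa (-0.33), H2-Eb1 (-0.23) and H2-Eb2 (0.10).

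**Figure D3:**
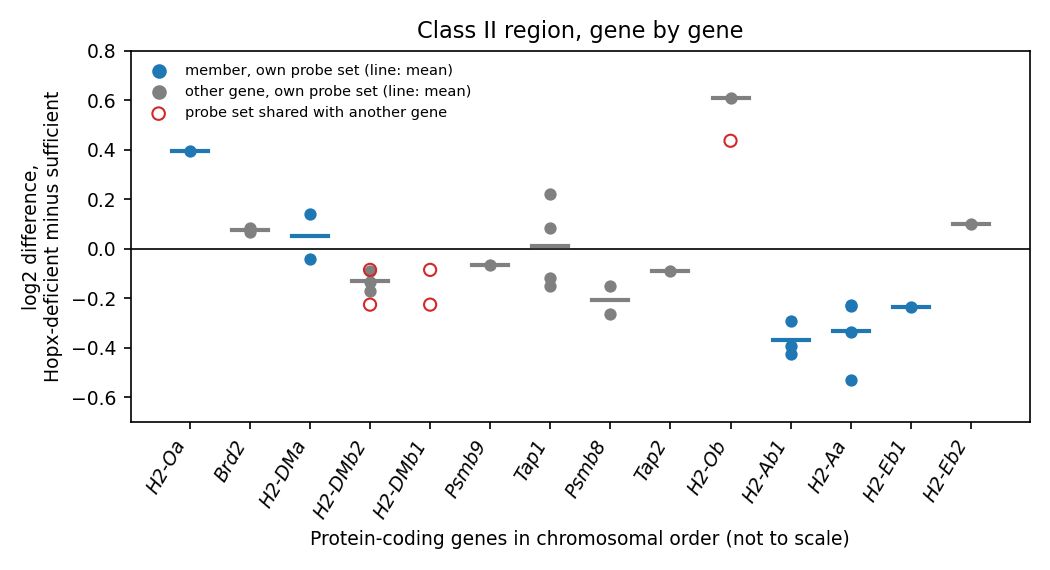
Log2 difference, Hopx-deficient minus Hopx-sufficient (y axis), of the 14 protein-coding genes from H2-Oa to H2-Eb2 in their order on chromosome 17 (x axis, not to scale), with points for probe sets and lines for gene means. The 3 adjacent genes H2-Ab1, H2-Aa and H2-Eb1 lie lowest, between -0.37 and -0.23, and H2-Oa and H2-Ob lie highest, at 0.40 and 0.61.

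The paired letters shown above occurred in genes on both sides of 0. Promoter windows were found for 7 of the 10 members, and the 250 bases before each start were searched. The letters GNAAC followed on the same strand, after 15 to 35 bases, by TGATTGG were present in 4 of these 7 members (H2-Aa, H2-Eb1, H2-DMb1 and H2-Oa) and in 159 of 32851 windows overall (0.484%). The gap between the pair was 26 bases in H2-Aa (-0.33), in H2-DMb1 and in H2-Oa (0.40), and 25 bases in H2-Eb1 (-0.23). It was 23 bases in H2-Ob (0.61). This pair was spelled out after the windows had been read, so its frequency among members is a description.

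**Figure D4:**
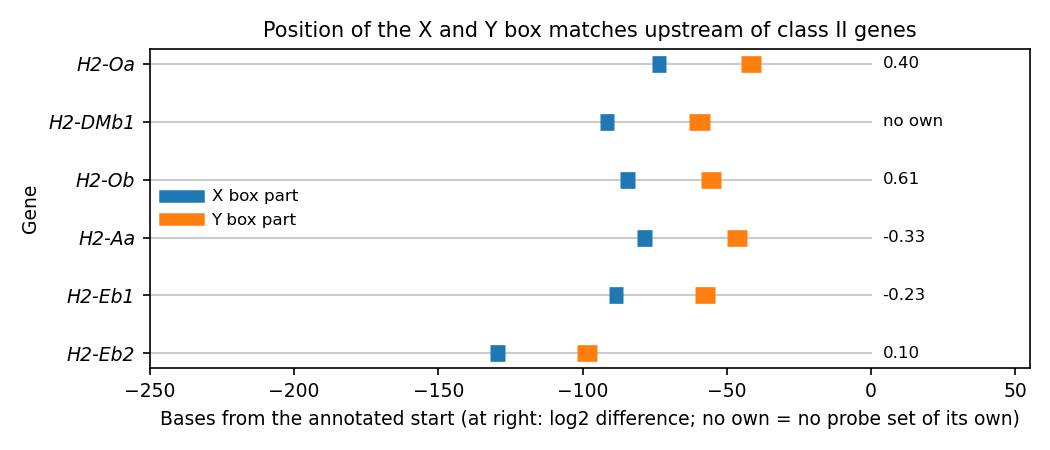
Position of the paired letters upstream of 6 class II genes (y axis), in bases from the annotated start (x axis), with blue for the X box part and orange for the Y box part; the number at the right is the log2 difference of the gene. The pair begins between 76 and 132 bases before the start in the genes drawn, those with positive and those with negative differences alike.

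The motifs were also searched one at a time, on both strands. The letters capitalised above are frequent on their own: GNAAC was in 6 of the 7 members and in 79.6% of all windows, and TGATTGG in 4 of the 7 and in 7.23%. The Y box core ATTGG, which TGATTGG contains, was in 5 of the 7 members and in 33.8% of all windows. The X box spelling AGNAACNG was in 2 of the 7 (14.5% of all windows), and a longer one (AGNNAC, any base, then GATG) was in 3 of the 7 (0.816%). One of these 3 is H2-Oa, whose match lies 142 bases before the start and outside the stretch shown. The letters marked as the X box in H2-Aa, in H2-Oa and in H2-Ob, which is not a member, matched neither of these spellings. Ifi30 matched none of the motifs. Ctss held GAAA, any 2 bases and GAAA again, the core of the element through which interferons act, as 2.98% of windows do, and it is shown as the 1 match to this element among the members. The match is in capitals in the stretch at chr3:95526755-95526784, on the plus strand.
Ctss: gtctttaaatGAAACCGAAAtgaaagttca

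Among the other genes of the class II pathway, 16 of 24 measured were higher and 8 lower, with a median of 0.08, and 1 (H2-Ob) was at least 1.5-fold higher. For this list and those below, the shares over all genes were 47.4% lower and 1.57% at least 1.5-fold apart (0.313% upward). The median over all genes was 0.01. After H2-Ob the largest differences were those of lysosomal proteases: Ctsd, encoding cathepsin D, was 1.41-fold higher (1 probe set) and Lgmn, encoding the asparagine endopeptidase legumain, 1.39-fold higher (1 probe set). The proteases did not go one way. Named after their values were seen, Ctsb (0.26) and Ctsl (0.22) were higher, and Ctsh (-0.40), Napsa (-0.28) and Ctsz (-0.18) lower; the 5 probe sets of Ctsb ran from -0.09 to 0.61.

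The factors that hold Ciita on the X and Y boxes had mean differences from -0.07 to 0.20, with a wider range over probe sets. The 3 subunits of RFX, the complex on the X box, differed by 0.20 (Rfx5, 1 probe set), 0.12 (Rfxank) and 0.00 (Rfxap). The 3 probe sets of Rfxank ran from 0 to 0.31, and the 2 of Rfxap gave -0.14 and 0.14. Those of NF-Y, the complex on the Y box, differed by -0.07 (Nfya, 3 probe sets from -0.23 to 0.06), 0.11 (Nfyb, 2 probe sets) and -0.07 (Nfyc, 1 probe set). All were named for their role. Marchf1, a ubiquitin ligase that takes class II off the cell surface, differed by -0.18, and its relative Marchf8 by 0.17.

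The path from interferon-gamma to Ciita held 11 measured genes, 8 higher and 3 lower, with a median of 0.11 and none 1.5-fold apart. The cytokine gene itself, Ifng, was lowest at -0.31 (1 probe set). Its receptor chain gene Ifngr1 (0.29) and the kinase gene Jak1 (0.28) were highest. Irf1, a factor that acts on a Ciita promoter, stood at 0.00 to 2 decimals (1 probe set).

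MHC class I genes, which present peptides from the cytosol, had a median of -0.06 over 13 measured genes, 6 higher and 7 lower. The most different were Erap1 (-0.26), Psmb10 (-0.22) and Psmb8 (-0.21), all of which shape peptides. The class I heavy chain genes H2-D1 (0.19) and H2-K1 (0.15) were on the other side of 0 from H2-Aa, H2-Ab1 and H2-Eb1. Other class II chain genes went both ways: H2-Eb2 (0.10), H2-Oa (0.40) and H2-Ob (0.61) were above 0 and H2-DMb2 (-0.13) was below. H2-Ea and H2-DMa, with means of 0.04 and 0.05, had probe sets on both sides of 0. B2m stood at 0.04. H2-D1, H2-K1 and B2m were named for their role. Whether class I and class II genes differ in their response was not tested, since there is 1 array of each genotype.

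Genes for partners of class II recognition had a median of -0.07 over 10 genes, 4 higher and 6 lower, with none 1.5-fold apart. Without Cd4 and Ctla4, which are also on the T cell list, the median was -0.17. Ctla4 (0.34) and Cd28 (0.34), the T cell receptors for CD80 and CD86, were highest, and Cd274, encoding the ligand PD-L1, was lowest (-0.28). The co-receptor gene Cd4 (-0.01) and Lag3 (-0.22), whose product also binds class II, were named for their role.

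**Figure D5:**
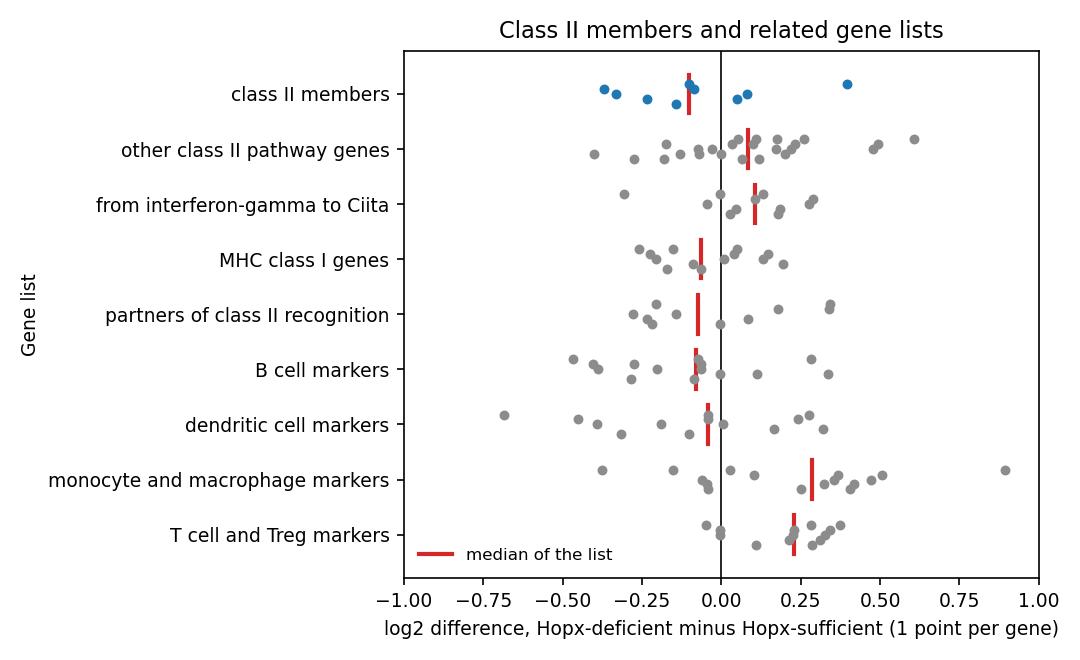
Log2 difference, Hopx-deficient minus Hopx-sufficient, of each measured gene (x axis, 1 point per gene) in the class II members and 8 related gene lists (y axis), with a red line at each median. With all measured genes of each list, the medians run from -0.10 for the class II members to 0.29 for monocyte and macrophage markers.

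Markers of the cells that make class II moved in different directions. Over all genes, 47.4% were lower and 1.57% were at least 1.5-fold apart (0.313% upward). Of 14 measured B cell markers 11 were lower and 3 higher (median -0.08), with Fcmr (-0.47), Cd79a (-0.41) and Ebf1 (-0.39) most different and none 1.5-fold apart. The 3 higher ones were Cd72 (0.34), Bank1 (0.28) and Fcer2a (0.11), named after their values were seen. The dendritic cell markers were lower in 8 of 13 cases (median -0.04). Their most different genes were Cd24a (1.61-fold lower), which other cells also express, Fscn1 (-0.45, with 4 probe sets from -1.70 to 0.06) and Tlr9 (-0.39). Itgax, Flt3 and Zbtb46, named because they define dendritic cells, stood at -0.10, -0.04 and 0.00.

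Monocyte and macrophage markers were higher in 11 of 16 cases (median 0.29), led by Mrc1 (1.86-fold higher), Cd14 (0.51) and Cd163 (0.47). T cell and Treg markers were higher in 10 of 13 cases (median 0.23), led by Ikzf2 (0.37), Ctla4 (0.34) and Cd5 (0.33). Of the macrophage markers 5 were lower, with Lyz2 at -0.38 and Itgam at -0.15 the lowest, and of the T cell markers 3 were, all between -0.05 and 0; these were named after their values were seen. The I-A chains, 11 of 14 B cell markers and 8 of 13 dendritic cell markers were thus below 0, as were 47.4% of all genes. The H2-DO chains H2-Oa (0.40) and H2-Ob (0.61) were above 0, with most macrophage and T cell markers. The part of any of these cells in the class II differences was not tested, and with no signal levels the defining markers that may be absent cannot be named.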

How the data were processed

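The authors deposited log2-type values from single-colour Affymetrix 3′ arrays (45101 probe sets), centred per probe set. This was tested on the table, where the sum of the columns was at most 1e-06 in size. The summarisation, normalization and log base are not given in the sources used here. With natural logs every difference would be 1.44 times larger. Each array took its group from its title. Symbols came from the platform annotation of 2016, updated by gene ID (34741 of 34945 probe sets matched); probe sets with several symbols (932), none (9160) and controls (64) were kept out of gene values. The difference was taken as deposited, Hopx-deficient minus Hopx-sufficient, and a gene's value is the mean over its probe sets. Thresholds of 1.5-fold and, as alternatives, 0.32 on the log2 scale and 2-fold are rules of size, not tests. Genes named are all members, the 3 most different of each list and any 1.5-fold apart; others are marked. Members and lists were chosen with earlier results of these data known. The number of arrays limits the precision. The summaries were tested on simulated data. Python 3.11.15, numpy 2.4.6, pandas 2.3.3 and matplotlib 3.10.9 were used.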

Additional observations from a re-analysis of the deposited data

How the results depend on the processing

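The alternatives were centring on the median (a shift of 0.0075) and natural logs. A gene value was also taken from the median or from the most different probe set. Others left out probe sets that can bind transcripts of several genes, or added shared ones. The last left out those with the finest value steps (none of the members). Each of the 9 genes kept its direction under every alternative that gave it a value, but much of this was fixed in advance. Natural logs only rescale the values, and the shift by centring was smaller than every member's difference, so neither could change a direction. Cd74, H2-Eb1, H2-Oa and Ctss have 1 probe set each, so the choice of probe sets could not change theirs. Every probe set of H2-Aa, H2-Ab1 and Ifi30, the shared one included, was below 0, so the same holds for these genes. For Ciita the direction is that of the summary value, since its probe sets went both ways. H2-Aa had no value once probe sets that can bind transcripts of several genes were removed. With the most different probe set the value was -0.53 for H2-Aa and -0.50 for Ciita. With a threshold of 0.32 on the log2 scale, 2 members were lower and 1 higher, against 0 and 0 at 1.5-fold and at 2-fold. Without shared members the median of the partners of class II recognition went from -0.07 to -0.17, and those of the other 7 lists stayed the same. No paired analysis was possible because there is 1 array of each genotype; for the same reason none could be left out.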

Other observations

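H2-Ea, the alpha chain that pairs with the H2-Eb1 product, was on no list. Some inbred mouse strains do not make it, and the labels name no strain. Its 3 probe sets gave 0.26, 0.00 and -0.14, with a mean of 0.04, so they shared no direction with each other, and H2-Eb1 stood at -0.23. The probe set at 0.00 read 0 in both columns. The spacing of the deposited numbers places the one at 0.26 below 8 before centring, on at least 1 array. It places the one at -0.14 below 4, again on at least 1 array.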
